A study of Homo sapiens with 6 samples.

Results

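The 9 genes described here encode parts of the machinery that presents peptides on MHC class I molecules: the heavy chains HLA-B and HLA-C, the light chain B2M, the peptide transporter subunits TAP1 and TAP2, the loading factor TAPBP, and the immunoproteasome subunits PSMB8, PSMB9 and PSMB10. They were chosen by gene symbol, each matched 1 of the 62703 rows of the count table, and all 9 were among the 15693 genes with enough counts to test. They were measured by RNA-seq in HGC-27, a long-established line of human gastric cancer cells kept in RPMI medium with 10% fetal bovine serum. The shControl group (3 libraries, genotype labelled WT) carried a control shRNA, and the shGXYLT2 group (3 libraries, labelled GXYLT2 knockdown) stably expressed an shRNA against GXYLT2, which encodes a xylosyltransferase acting on Notch receptors. The labels give neither whether each line was 1 clone nor whether replicates were separate cultures, and the p-values therefore reflect library-to-library spread alone, which may be technical. The comparison asks how lower GXYLT2 bears on the malignant traits of these cells.

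Class I molecules display peptides from proteins made inside the cell to cytotoxic T cells. Proteasomes cut the proteins, the TAP transporter carries the peptides into the endoplasmic reticulum, and tapasin, the product of TAPBP, holds empty heavy chains paired with beta-2-microglobulin next to the transporter until a peptide binds. Interferon-gamma induces most of these genes, and 3 of them encode proteolytic subunits that take the places of PSMB5, PSMB6 and PSMB7 in newly made proteasomes. Tumour cells often carry less class I at the surface, through loss or silencing of any of these steps.

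Each library held 17291138 to 24898425 estimated counts. Levels are given as CPM, counts scaled to the library total and corrected by TMM factors. GXYLT2 itself stood at 20.7, 22.8 and 20.2 CPM in shControl replicates 1 to 3 and at 5.27, 6.27 and 5.34 CPM in shGXYLT2 replicates 1 to 3, 3.77-fold lower. Markers of a gastric epithelial origin were mostly low or absent. The 8 epithelial markers had a summed level of 6.26 to 7.34 CPM in shControl and 6.89 to 7.39 CPM in shGXYLT2. KRT18 had 6 counts and EPCAM 17 counts over all 6 libraries, and 7 of 12 gastric lineage genes, MUC5AC and TFF1 among them, were at 0 in every library. CDH1 and KRT8 averaged 2.92 and 1.57 CPM in shControl and 2.33 and 1.78 CPM in shGXYLT2, and the gastric factors GATA4 and GATA6 11.5 and 7.503 CPM against 10.2 and 8.30 CPM; these 4 did not pass the edgeR test. MUC6, a gastric gland mucin, rose from 2.05 to 4.22 CPM (edgeR adjusted p = 0.00286). Fibroblast markers had a summed level of 2051 to 2151 CPM in shControl and 2218 to 2357 CPM in shGXYLT2 for 6 genes. Most of this sum was COL3A1, which averaged 1581 and 1673 CPM and did not pass (edgeR adjusted p = 0.371). PDGFRA (26.2 and 30.3 CPM) and PDGFRB, at a low 1.28 and 0.673 CPM, did not pass either (adjusted p = 0.0904 and 0.0806). Of the 6 fibroblast markers DCN and LUM rose (186 to 250 and 180 to 240 CPM) and ACTA2 fell (127 to 101 CPM). The ACTA2 call was lost without shControl replicate 2 (edgeR adjusted p = 0.0575). The part of these markers and of MUC6 in the results below was not tested. Of 14 leukocyte markers 5 were at 0 throughout, CD3E, CD79A and MS4A1 among them, and the summed level was 1.82 to 2.31 CPM in shControl and 1.44 to 2.15 CPM in shGXYLT2.

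The promoters of HLA-B, HLA-C and PSMB9 are shown because these were the 3 genes of the set with the largest changes, the heavy chains downward and PSMB9 upward. Each line gives bases 200 to 51 before the RefSeq start site, 5′ to 3′ on the strand of the gene (RefSeq, GRCh38.p14), a stretch that overlaps no exon of its own gene. Capitals mark matches, on either strand, to GGGNNNNNCC (a loose kB site, bound by NF-kB), TGACG (the core of a cyclic AMP response element, part of the X box of class I promoters), CCAAT (bound by NF-Y), GAAANNGAAA (an interferon-stimulated response element, ISRE, bound by interferon regulatory factors) and TTCNNNGAA (a GAS element, an interferon-gamma activated site). The windows lie at chr6:31357230-31357379 (HLA-B, minus strand), chr6:31272143-31272292 (HLA-C, minus strand) and chr6:32853992-32854141 (PSMB9, plus strand).
HLA-B: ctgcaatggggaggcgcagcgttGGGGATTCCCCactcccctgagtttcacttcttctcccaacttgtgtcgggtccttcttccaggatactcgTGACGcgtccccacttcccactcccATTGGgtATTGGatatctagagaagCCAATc
HLA-C: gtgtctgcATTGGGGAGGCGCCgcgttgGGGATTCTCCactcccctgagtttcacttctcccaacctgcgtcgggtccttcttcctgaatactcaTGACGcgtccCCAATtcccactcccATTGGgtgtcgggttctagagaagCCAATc
PSMB9: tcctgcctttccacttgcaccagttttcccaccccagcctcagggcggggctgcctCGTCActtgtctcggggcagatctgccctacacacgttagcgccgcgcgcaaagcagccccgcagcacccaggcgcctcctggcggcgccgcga

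The 2 heavy chain promoters were alike, with 134 identical bases in an alignment of 154 columns (87.0%), against 48.1% between HLA-B and PSMB9. Both carried a kB match (2 overlapping ones that start 177 and 176 bases before the HLA-B start site; at 188 and 172 bases for HLA-C), a TGACG match 106 or 105 bases before the start and a CCAAT match at 56 bases. In HLA-C the farthest CCAAT match, as ATTGG, runs into a kB match. The PSMB9 stretch held TGACG, as CGTCA, and none of the other 4 motifs. These are the reference alleles, and HLA genes differ between people, so the sequence in HGC-27 may differ.

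All 9 genes had a promoter window of 300 bases in the RefSeq set (250 before to 50 after the start), 11 windows in all since PSMB8 and TAP1 each had 2. ISRE matches were found in 6 of these 11 windows, against 3.57% of all 35116 windows, and GAS matches in 2 of 11, against 7.66%. The kB motif matched in 7 of 11 windows (58.7% of all), TGACG in 6 of 11 (24.6%) and CCAAT in 5 of 11 (34.6%). The 6 windows with an ISRE match belonged to 6 different genes. The ISRE matches are shown in capitals within 30 bases each, on the strand of the gene, because the element is the textbook interferon site of this pathway. The windows of HLA-B, HLA-C and PSMB9 held no exact match. Variants of the element were not searched, so these windows may hold an ISRE with other letters. The HLA-B and HLA-C stretches above both read tttcacttct soon after the kB match, which resembles the motif on the other strand without equalling it. The motifs were chosen after the levels were seen, and a match describes letters, not binding. For PSMB8 the match lies at the second of its start sites. The TAP1 match lies between the start sites of TAP1 and PSMB9, which are 488 bases apart. It falls beyond the 250 bases searched before the PSMB9 start, so its absence from the PSMB9 window depends on the window edge.
B2M (chr15:44711366-44711395, plus strand): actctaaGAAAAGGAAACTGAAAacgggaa
TAP1 (chr6:32853816-32853845, minus strand): cggccgcTTTCGATTTCGCTTTCccctaaa
TAP2 (chr6:32838778-32838807, minus strand): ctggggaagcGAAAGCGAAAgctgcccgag
TAPBP (chr6:33314076-33314105, minus strand): tttggagGAAAGTGAAAGTGAAAggaggaa
PSMB8 (chr6:32844032-32844061, minus strand): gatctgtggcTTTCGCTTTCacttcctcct
PSMB10 (chr16:67936852-67936881, minus strand): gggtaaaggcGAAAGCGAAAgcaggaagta

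The set did not move one way in shGXYLT2 cells. Both heavy chains and TAP2 fell, PSMB9 rose, and B2M, TAP1, TAPBP, PSMB8 and PSMB10 did not pass the test (edgeR quasi-likelihood test, Benjamini-Hochberg adjusted over all tested genes, threshold 0.05). Of the 9 genes 1 rose, where 5.31% of all tested genes did, and 3 fell, where 6.84% did; 4 passed in either direction, against 12.2% of all. The shGXYLT2 libraries lay wholly above the controls in 2 genes and wholly below them in 3, against 30.4% of all tested genes in either direction. In bulk RNA, fewer cells that express a gene and less RNA per cell cannot be told apart. The median log2 fold change of the 9 was -0.03 and that of all tested genes -0.01.

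**Figure D1:**
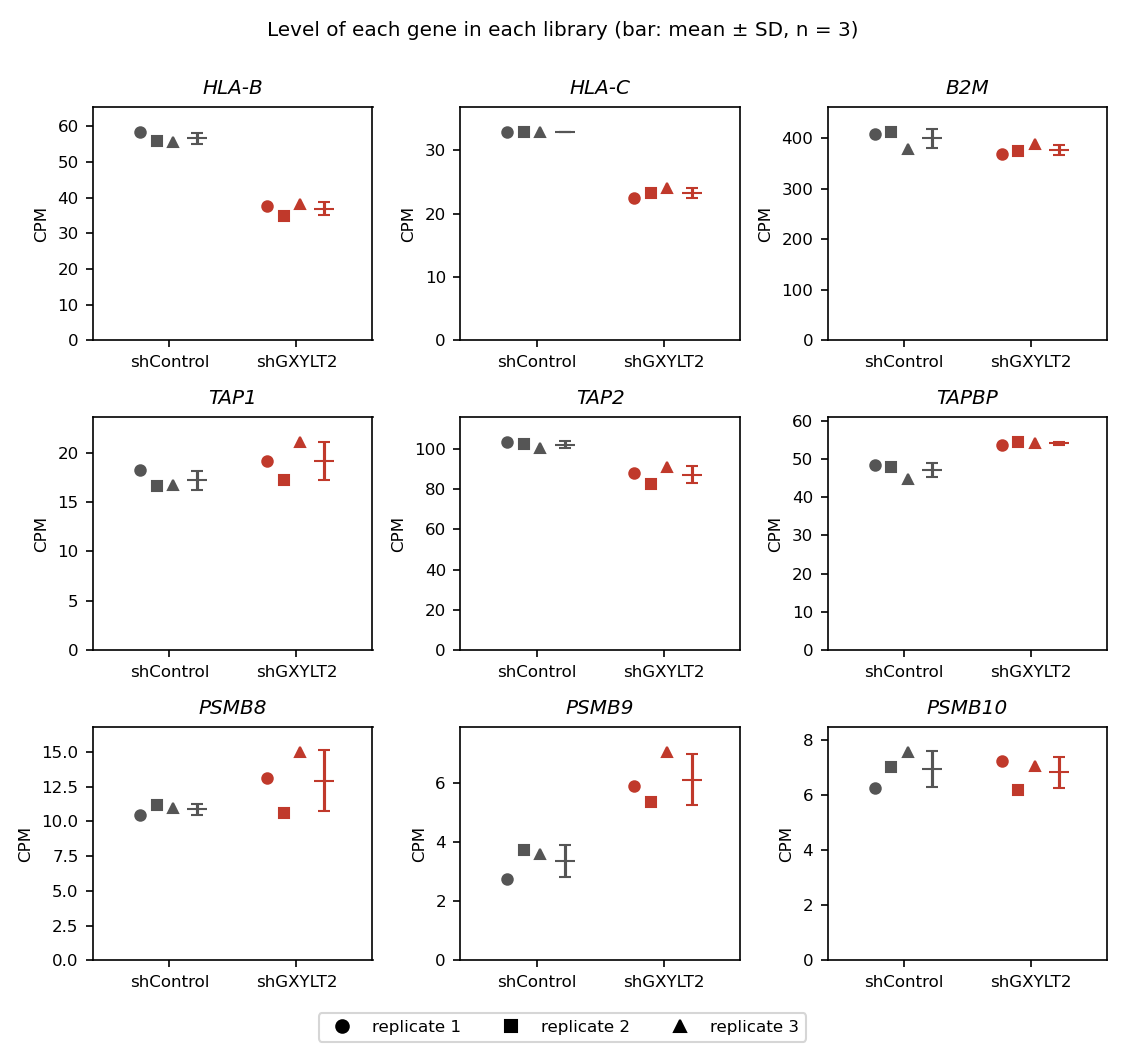
Level of each of the 9 genes in CPM (y axes, from 0, 1 panel per gene) in the 3 shControl (grey) and 3 shGXYLT2 (red) libraries, with 1 marker shape per replicate number and the mean ± SD (n = 3) beside the points. The groups are apart for HLA-B, HLA-C, TAP2, TAPBP and PSMB9 and overlap for the other 4.

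HLA-B showed the lowest p of the set. This gene (ENSG00000234745; chr6:31269491-31357188, minus strand, GENCODE release 29 on GRCh38) encodes a heavy chain that holds the peptide and is read by T cells and by inhibitory receptors of natural killer cells. It stood at 58.3, 55.8 and 55.5 CPM in shControl replicates 1 to 3 and at 37.7, 34.9 and 38.1 CPM in shGXYLT2 replicates 1 to 3. Every shGXYLT2 library was below every control. The mean fell from 56.5 ± 1.58 to 36.9 ± 1.76 CPM (± SD over 3 libraries per group), 1.53-fold lower, with a log2 fold change of -0.61 (SE 0.069, edgeR adjusted p = 5.41e-06). These levels rested on 849 to 1261 counts per library.

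HLA-C (ENSG00000204525; chr6:31268749-31272130, minus strand), the heavy chain that serves most inhibitory killer cell receptors, fell with it. Its level was 32.9, 32.8 and 32.9 CPM in shControl and 22.5, 23.3 and 24.1 CPM in shGXYLT2. The 3 controls were almost equal, and the shGXYLT2 libraries lay well below them. The mean fell from 32.8 ± 0.0356 to 23.3 ± 0.810 CPM (± SD over 3 libraries per group), 1.41-fold lower, with a log2 fold change of -0.50 (SE 0.076, edgeR adjusted p = 2.23e-04). Both falls passed the test in all 14 alternative fits, with log2 fold changes of -0.64 to -0.58 for HLA-B and -0.52 to -0.47 for HLA-C. Class I heavy chains are near-identical over long stretches and vary between people, and their counts were not whole numbers in all 6 libraries, so reads may have been split between them or lost to alleles unlike the reference.

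B2M (ENSG00000166710; chr15:44711487-44718877, plus strand) encodes beta-2-microglobulin, the light chain that every class I heavy chain needs to reach the surface. It was the most abundant of the 9 per kb, and its level was 409, 412 and 378 CPM in shControl and 369, 375 and 388 CPM in shGXYLT2. The groups overlapped through the third library of each. The means were 400.0 ± 19.0 and 377 ± 9.94 CPM (± SD over 3 libraries per group, with a log2 fold change of -0.08 and an edgeR adjusted p of 0.379). The estimate plus or minus 2 standard errors ran from -0.20 to 0.03.

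Scaled to length, the balance of heavy to light chain transcripts within each library was lower in shGXYLT2. The summed counts per kb of HLA-B and HLA-C were 0.0872, 0.0841 and 0.0915 of those of B2M in shControl and 0.0640, 0.0607 and 0.0628 in shGXYLT2. The groups did not overlap. The mean ratio was 0.0876 ± 0.00369 against 0.0625 ± 0.00165 (± SD over 3 libraries per group; two-sided exact permutation p = 0.1, the lowest value 3 libraries per group allow, and 0.175 adjusted over 7 ratios). This ratio needs no scaling between libraries. The ratio of HLA-B to HLA-C was 1.80, 1.72 and 1.71 in shControl and 1.696, 1.52 and 1.60 in shGXYLT2 (exact permutation p = 0.1, adjusted 0.175), with a narrow gap between the groups.

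Of the 2 subunits of the peptide transporter, TAP2 fell and TAP1 did not pass. TAP2 (ENSG00000204267; chr6:32821833-32838780, minus strand) stood at 103, 102 and 100.1 CPM in shControl and 87.7, 82.5 and 90.7 CPM in shGXYLT2. All shGXYLT2 libraries were lower. The mean fell from 102 ± 1.64 to 87.0 ± 4.18 CPM (± SD over 3 libraries per group), 1.17-fold lower (log2 fold change -0.23, SE 0.062, edgeR adjusted p = 0.0192). This call was lost in 6 of 14 alternative fits: with a replicate block (adjusted p = 0.0540), and without shControl replicates 1, 2 or 3 (0.114, 0.0829 and 0.0667) or shGXYLT2 replicates 1 or 2 (0.0581 and 0.0537). TAP2 shares 2064 exon bases with AL669918.1, a gene model on the same strand that held 18 to 56 counts per library against 1748 to 2275 for TAP2.

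TAP1 (ENSG00000168394; chr6:32845209-32853978, minus strand), the partner with which TAP2 forms the transporter, stood at 18.3, 16.6 and 16.7 CPM in shControl and 19.2, 17.2 and 21.1 CPM in shGXYLT2. The second shGXYLT2 library lay within the range of the controls. The means were 17.2 ± 0.955 and 19.2 ± 1.92 CPM (± SD over 3 libraries per group, with a log2 fold change of 0.16, edgeR adjusted p = 0.329). Per kb, TAP1 stood at 0.158, 0.144 and 0.148 of TAP2 in shControl and at 0.195, 0.186 and 0.207 in shGXYLT2. This ratio was 1.31-fold higher, in libraries that did not overlap (exact permutation p = 0.1, adjusted 0.175).

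TAPBP (ENSG00000231925; chr6:33299694-33314387, minus strand), which encodes tapasin, stood at 48.3, 48.0 and 44.9 CPM in shControl and 53.5, 54.4 and 54.2 CPM in shGXYLT2. Every shGXYLT2 library was above every control, but the gene missed the threshold. The means were 47.1 ± 1.91 and 54.0 ± 0.466 CPM (± SD over 3 libraries per group, with a log2 fold change of 0.20, SE 0.066, edgeR adjusted p = 0.0540). It passed in 4 of 14 alternative fits: with upper-quartile factors (adjusted p = 0.0337), with a filter at 1 CPM (0.0473), without shGXYLT2 replicate 3 (0.0322) and with GC content and length offsets (0.00398).

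**Figure D2:**
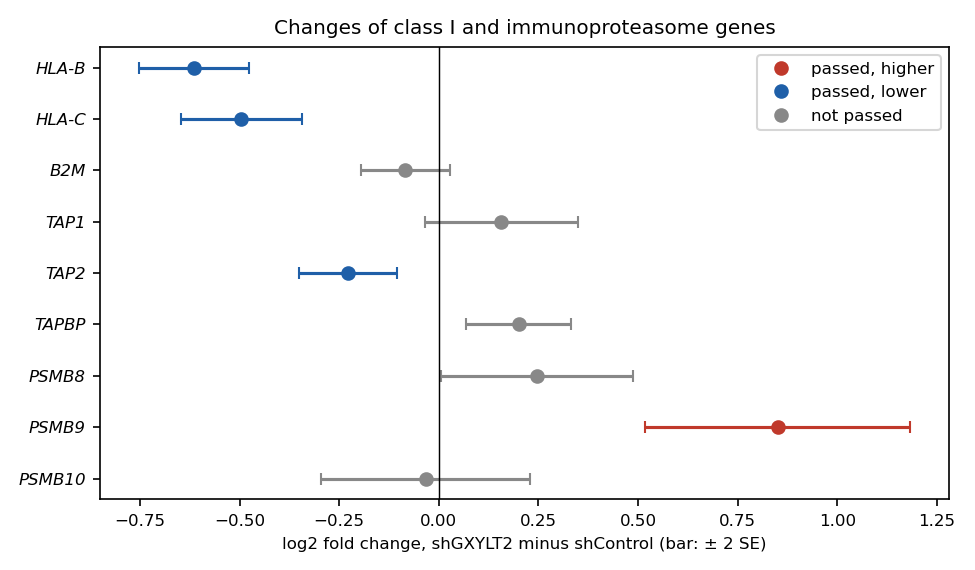
Log2 fold change of the 9 genes, shGXYLT2 minus shControl (x axis), with bars of 2 standard errors on each side; red and blue points passed the edgeR test upward and downward, grey points did not. HLA-B, HLA-C and TAP2 lie to the left and PSMB9 (0.85) far to the right of the rest.

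Among the immunoproteasome genes, PSMB9 was the one that passed. It encodes the inducible beta 1i subunit, which replaces PSMB6 and favours cuts after hydrophobic residues that suit class I binding. PSMB9 (ENSG00000240065; chr6:32844136-32859585, plus strand) stood at 2.76, 3.75 and 3.61 CPM in shControl and 5.91, 5.38 and 7.05 CPM in shGXYLT2. The lowest shGXYLT2 library was above the highest control. The mean rose from 3.37 ± 0.536 to 6.11 ± 0.855 CPM (± SD over 3 libraries per group), 1.80-fold higher, with a log2 fold change of 0.85 (SE 0.167, edgeR adjusted p = 0.00198). It rested on 48 to 82 counts per control library and 132 to 157 per shGXYLT2 library, all whole numbers. The rise passed in all 14 alternative fits, with log2 fold changes of 0.73 to 0.93.

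PSMB8 (ENSG00000204264; chr6:32840717-32844703, minus strand), the beta 5i subunit that replaces PSMB5, stood at 10.5, 11.2 and 10.95 CPM in shControl and 13.1, 10.6 and 15.0 CPM in shGXYLT2. The second shGXYLT2 library was within the control range, and the others were above it. The means were 10.9 ± 0.372 and 12.9 ± 2.19 CPM (± SD over 3 libraries per group, with a log2 fold change of 0.25, edgeR adjusted p = 0.207), and 1 library moved this value either way: the log2 fold change was 0.37 without shGXYLT2 replicate 2 (adjusted p = 0.0416) and 0.13 without shGXYLT2 replicate 3 (0.501). PSMB10 (ENSG00000205220; chr16:67934502-67937087, minus strand), the beta 2i subunit that replaces PSMB7, stood at 6.27, 7.03 and 7.57 CPM in shControl and 7.23, 6.19 and 7.05 CPM in shGXYLT2. Its groups were intermixed, with means of 6.95 ± 0.654 and 6.82 ± 0.557 CPM (± SD over 3 libraries per group, with a log2 fold change of -0.03, edgeR adjusted p = 0.908; estimate plus or minus 2 standard errors -0.29 to 0.23).

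PSMB8, PSMB9, TAP1 and TAP2 are neighbours within the class II region of chromosome 6, and the start sites of TAP1 and PSMB9 lie 488 bases apart in opposite directions. Exons of PSMB8 and PSMB9 share 139 bases on opposite strands. PSMB8-AS1, which held 5 to 16 counts per library, shares exon bases with PSMB8 (618 bases) and TAP1 (456 bases) on the opposite strand. With PSMB9 it shares 174 exon bases on the same strand. HLA-B and HLA-C share 35 exon bases on the same strand, and their annotated spans overlap. PSMB10 shares 644 exon bases with AC040162.1 on its own strand, which held 46 to 73 counts. The sources used here do not say if counting took strand into account, so reads in overlaps on opposite strands could not be told apart. Strand cannot separate reads in overlaps on the same strand.

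Of the 3 subunits that the immunoproteasome displaces 0 passed by edgeR, DESeq2 or limma, and 0 had an unadjusted edgeR p below 0.05. PSMB6 averaged 102 ± 2.64 and 109 ± 9.21 CPM in shControl and shGXYLT2, PSMB5 148 ± 7.33 and 158 ± 7.77 CPM, and PSMB7 171 ± 7.84 and 184 ± 12.2 CPM (± SD over 3 libraries per group; edgeR adjusted p = 0.466, 0.372 and 0.308). Per kb, PSMB9 stood at 2.18%, 2.90% and 2.93% of PSMB6 in shControl and at 4.42%, 4.37% and 4.84% in shGXYLT2, groups that did not overlap (exact permutation p = 0.1, adjusted 0.175). PSMB8 stood at 6.84% ± 0.220 of PSMB5 in shControl and 7.59% ± 0.927 in shGXYLT2, and PSMB10 at 4.11% ± 0.521 and 3.74% ± 0.242 of PSMB7 (± SD over 3 libraries per group; exact permutation p = 0.4 and 0.3, adjusted 0.4 and 0.35). All 3 inducible subunits together made up 4.05%, 4.35% and 4.73% of the catalytic subunit counts per kb in shControl and 5.06%, 4.57% and 5.20% in shGXYLT2. The second shGXYLT2 library lay below the third control (means 4.38% ± 0.339 and 4.94% ± 0.329, SD over 3 libraries per group; exact permutation p = 0.2, adjusted 0.28). Constitutive transcripts made up most of the catalytic subunit messages in both groups.

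**Figure D3:**
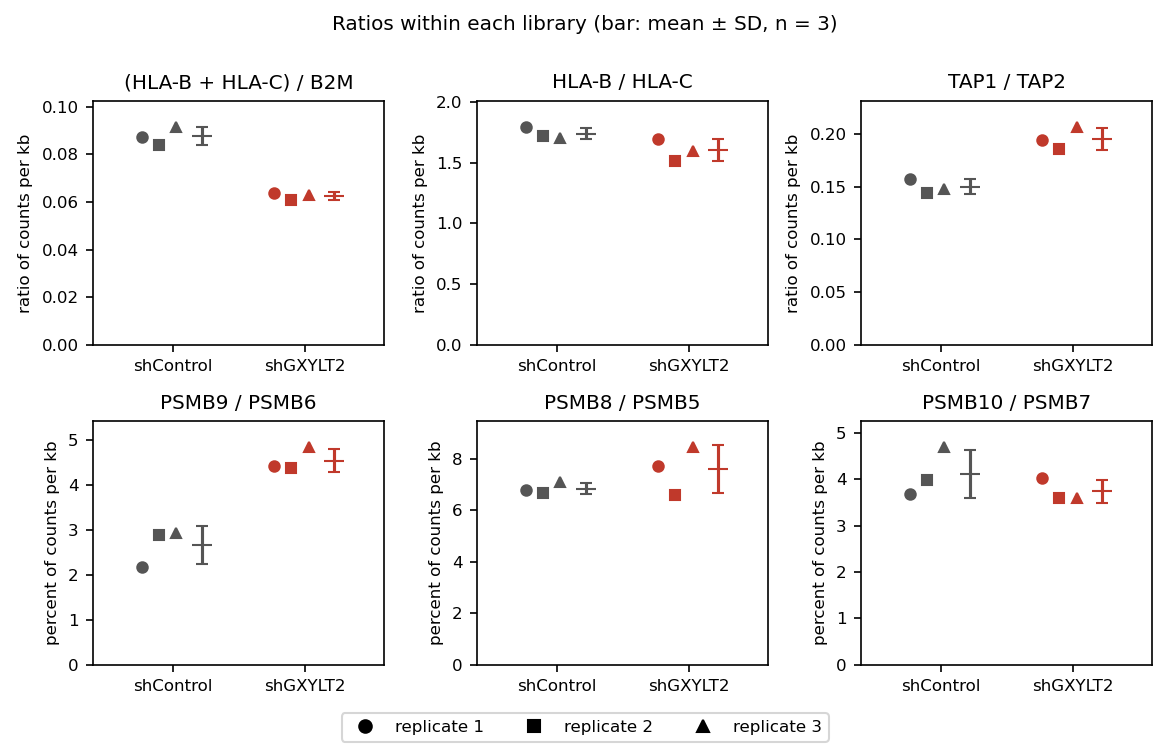
Ratios of counts per kb within each library (y axes, from 0; ratios in the upper row, percent in the lower row) for the 3 shControl (grey) and 3 shGXYLT2 (red) libraries, with the mean ± SD (n = 3) beside the points. The groups are apart for the upper row and for PSMB9 over PSMB6, and overlap for PSMB8 over PSMB5 and PSMB10 over PSMB7.

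Per kb of the deposited gene length, the order of levels in shControl was B2M (662 CPM per kb), TAP2 (41.0), HLA-B (36.8), HLA-C (21.1), TAPBP (17.6), PSMB8 (9.67), PSMB10 (7.12), TAP1 (6.15) and PSMB9 (3.32). PSMB10 and TAP1 overlapped in this order, at 6.41 to 7.74 and 5.94 to 6.54 CPM per kb over the control libraries, and every other pair of neighbours was apart. In shGXYLT2 TAPBP (20.2 CPM per kb) stood above HLA-C (15.0), and PSMB9 (6.01, range 5.29 to 6.93) reached into the ranges of TAP1 (6.17 to 7.54) and PSMB10 (6.34 to 7.40). Within the shGXYLT2 group, replicate 2 held the lowest level in 6 of the 9 genes and replicate 3 the highest in 7. The spread was widest for PSMB8 in shGXYLT2, with a coefficient of variation of 16.97%, and narrowest for HLA-C in shControl, at 0.108%.

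Of 11 tested genes of loading and peptide trimming 1 rose and 2 fell, with a median log2 fold change of -0.03. Over all tested genes 5.31% rose and 6.84% fell, and the counts of this and the following lists stand beside those shares. ERAP2, an aminopeptidase that trims peptides in the endoplasmic reticulum, stood at 26.7, 26.8 and 29.5 CPM in shControl and 38.7, 42.4 and 29.3 CPM in shGXYLT2. Its mean rose from 27.7 to 36.8 CPM (edgeR adjusted p = 0.0260), although the third shGXYLT2 library lay within the control range, and the call was lost without shControl replicates 1 or 2 (0.0995 and 0.1001) or shGXYLT2 replicates 1 or 2 (0.0680 and 0.106). The chaperones CANX, which folds new heavy chains, and HSPA5 fell from 2368 to 2106 CPM and from 2007 to 1736 CPM (adjusted p = 0.0430 and 0.0162), calls lost in 8 and 5 of 14 alternative fits. CALR and PDIA3, which sit with tapasin in the loading complex, did not pass (adjusted p = 0.575 and 0.189).

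Of 17 class I-like genes 9 were tested, and of these 1 rose and 1 fell, where 5.31% and 6.84% of all tested genes did. MR1, which presents vitamin metabolites to mucosal-associated T cells, rose from 21.2 ± 1.37 to 28.6 ± 0.929 CPM (± SD over 3 libraries per group, with a log2 fold change of 0.43, edgeR adjusted p = 0.00152). FCGRT, the heavy chain of the neonatal Fc receptor, fell from 1.24 to 0.610 CPM (adjusted p = 0.0395), a low level and a call lost in 9 of 14 alternative fits. HLA-E, which shows leader peptides of other heavy chains to natural killer cells, stood at 53.2, 54.8 and 53.1 CPM in shControl and 48.5, 42.7 and 48.2 CPM in shGXYLT2. All shGXYLT2 values were lower, but it did not pass (log2 fold change -0.21, adjusted p = 0.0605).

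Of 17 tested transcription factors that act on class I promoters 1 rose and 2 fell, where 5.31% and 6.84% of all tested genes did. NFKB1, a subunit of NF-kB, fell from 52.5 ± 2.84 to 41.1 ± 2.71 CPM and NFYA, a subunit of the CCAAT-binding factor, from 74.0 ± 2.87 to 61.5 ± 0.872 CPM (± SD over 3 libraries per group; edgeR adjusted p = 0.00320 and 0.00889); the NFYA call was lost without shControl replicate 1 or 2 (0.0575 and 0.0687). IRF2 rose from 11.8 to 15.1 CPM (adjusted p = 0.0396), a call lost in 8 of 14 alternative fits. NLRC5, the main transactivator of class I genes, averaged 8.78 ± 0.537 and 9.99 ± 0.855 CPM (± SD over 3 libraries per group; edgeR adjusted p = 0.340). IRF1, an interferon-induced activator of these promoters, averaged 9.07 and 10.5 CPM (adjusted p = 0.292).

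Of 14 tested interferon receptor and JAK-STAT genes 0 passed by edgeR (lowest adjusted p 0.153), DESeq2 or limma, and 1 had an unadjusted edgeR p below 0.05. TYK2, the most abundant, averaged 82.3 and 84.0 CPM (edgeR adjusted p = 0.846). Among other interferon-gamma responsive genes 2 of 9 tested rose and 0 fell, the median log2 fold change was 0.17, and 12 more of the list had too few counts to test. BST2, an antiviral tether, rose from 7.28 ± 0.576 to 10.3 ± 0.771 CPM, and NMI, an interferon-inducible gene, from 3.22 ± 0.212 to 5.01 ± 0.299 CPM (± SD over 3 libraries per group; edgeR adjusted p = 0.00797 and 0.0104). The BST2 call was lost without shControl replicate 3 (0.0513), and that of NMI without shControl replicate 3 (0.0616) and with DESeq2 (0.0544). Of the 11 remaining core subunits of the proteasome 0 passed by edgeR (lowest adjusted p 0.0863), DESeq2 or limma, and 2 had an unadjusted p below 0.05; PSMB4 averaged 327 and 342 CPM and PSMA4 314 and 307 CPM. Of 10 assembly factors and activators 0 passed by the same 3 tools (lowest edgeR adjusted p 0.174), and 1 had an unadjusted p below 0.05; PSME3 averaged 309 and 293 CPM and PSME4 227 and 213 CPM.

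**Figure D4:**
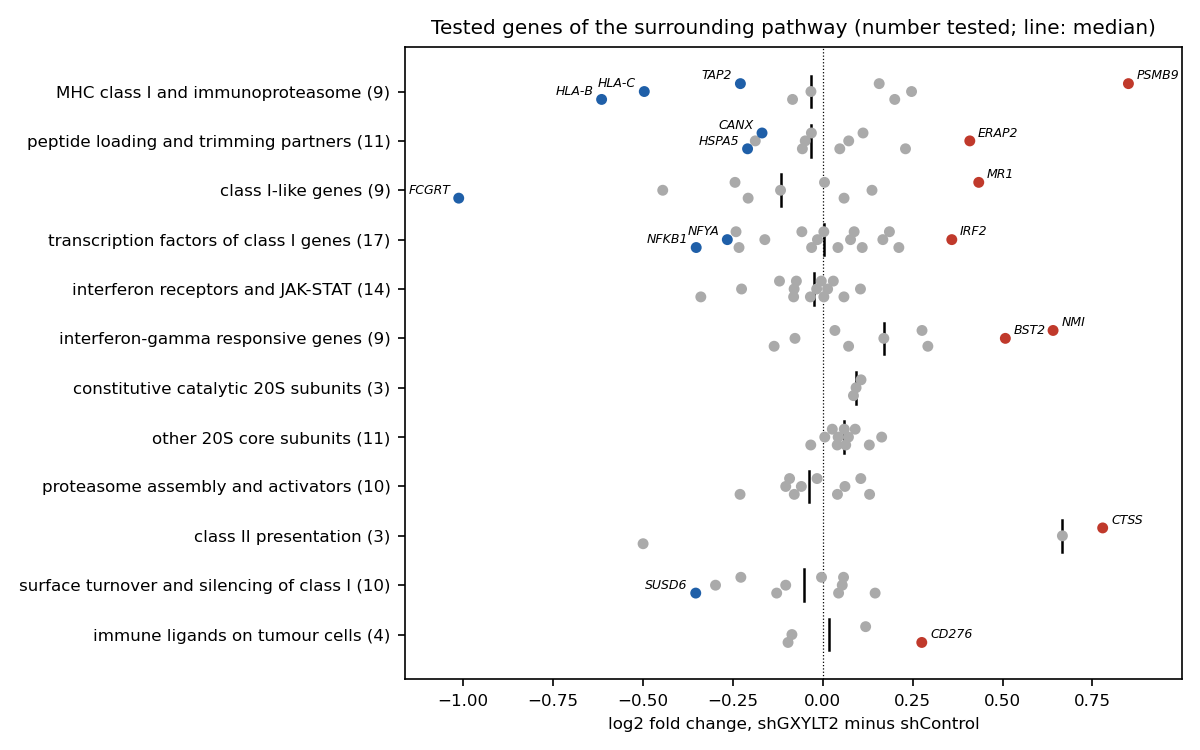
Log2 fold changes, shGXYLT2 minus shControl (x axis), of the 9 genes (top) and of 11 surrounding gene lists, with the number tested in brackets; each point is a gene, the line the list's median, and named red and blue points passed the edgeR test upward and downward. The genes that passed lie on both sides of 0 in the top 4 lists.

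Of 14 listed genes of class II presentation 6 were at 0 in every library, HLA-DRA and HLA-DRB1 among them, and 3 had enough counts to test. CTSS, a lysosomal protease that also cleaves the class II invariant chain, rose from 6.07 ± 0.185 to 10.4 ± 1.18 CPM (± SD over 3 libraries per group; edgeR adjusted p = 3.20e-04), and the class II transactivator CIITA averaged 1.59 and 1.13 CPM (adjusted p = 0.293). Among 10 tested genes of class I turnover and silencing SUSD6, an adaptor for the degradation of surface class I, fell from 17.6 to 13.7 CPM (adjusted p = 0.0199), a call lost without shControl replicates 1 or 2 (0.144 and 0.0656) or shGXYLT2 replicate 1 (0.0531). Of 4 tested immune ligands of tumour cells CD276 (B7-H3) rose from 46.6 to 56.3 CPM (adjusted p = 0.0177), a call lost without shControl replicates 2 or 3 (0.0714 and 0.141) or shGXYLT2 replicate 1 (0.0988). CD274, which encodes PD-L1, had 41 counts over all 6 libraries and was not tested.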

How the data were processed

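A single gene table deposited by the authors gives unnormalized estimated counts for 6 libraries, which were assigned by the names in the sample descriptions; 12.3% of its values were not whole. The submitters' processing notes name fastp, HISAT2, StringTie and GRCh38.p13; their versions and roles, the annotation and the strand setting are not given in those notes. The deposited gene length, whose definition is not given, was used for levels per kb and ratios. Counts were rounded and analysed in R 4.3.3 with edgeR 4.0.16: filterByExpr by group, TMM factors, a robust quasi-likelihood fit with group as the only term, two-sided tests and Benjamini-Hochberg adjustment over 15693 genes at 0.05. CPM values are scaled by TMM, except summed levels of marker lists, which use library totals. Fold changes are those of the fit. Genes and lists were chosen with earlier results of these data known, and the ratios other than that of heavy chains to B2M and the inducible share after the levels were seen.

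Named genes are GXYLT2, the 9 genes, up to 4 risen and 4 fallen genes of each list (or the 2 most abundant), and a few regulators, of which some results are not reported here; HLA-E, CALR, PDIA3, CD274 and the low-count genes were added after their values were seen. Positions and overlaps came from GENCODE release 29, whose GRCh38 coordinates match the primary chromosomes of the named build, and promoters from RefSeq. Alternatives used DESeq2 1.42.0, limma 3.58.1, other scaling, filters, libraries and a replicate block; GC content and length offsets were added after seeing the data. The procedure was tested on simulated data in which each gene had the same spread in both groups. That test therefore does not cover the wider spread among the shGXYLT2 libraries. No library was a copy of another: the chi-square per degree of freedom was 1.93 to 3.79 between shControl libraries and 5.42 to 9.94 between shGXYLT2 libraries. Between a shControl and a shGXYLT2 library it was 7.96 to 17.0. The shGXYLT2 libraries thus differed more among themselves than the controls did, and their range overlapped that between the groups. Figures and motif searches used Python 3.11.15, pandas 2.3.3, matplotlib 3.10.9 and Biopython 1.88.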

Additional observations from a re-analysis of the deposited data

How the results depend on the processing

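Over the 14 alternatives HLA-B and HLA-C fell and PSMB9 rose in every fit, and B2M, TAP1 and PSMB10 passed in none. The members that rose numbered 2 with upper-quartile factors, 2 with a filter at 1 CPM and 2 with GC content and length offsets, TAPBP being the second each time, and 1 to 2 with 1 library left out (PSMB8 without shGXYLT2 replicate 2, TAPBP without shGXYLT2 replicate 3); those that fell numbered 2 to 3. Over all genes the rises numbered 1500 and the falls 1588 with these offsets, 397 to 1038 and 563 to 1309 with 1 library left out, and 587 and 880 with DESeq2. The smallest totals came without shControl replicates 1 (399 rises and 591 falls), 2 (455 and 697) and 3 (397 and 563). With a replicate block, 606 genes rose and 865 fell, and 1 member rose and 2 fell; libraries with the same title number did not deviate together (correlations of -0.04 to 0.01), so the block is no evidence of pairing. The numbers in the sample descriptions differ from those in the titles, and match between groups only for title replicates 1 and 3 (correlations of 0.0052 and -0.0234).

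Near-zero log2 fold changes changed sign. PSMB10 came to 0.039 when shControl replicate 3 was left out and 0.031 when shGXYLT2 replicate 2 was (-0.0996 to 0.039 with 1 library left out), TYK2 -0.0076 and -0.0095 without shGXYLT2 replicates 1 and 3 (-0.0095 to 0.105), and PSMB6 -0.0026 with GC content and length offsets. The difference in the heavy chain to B2M ratio, -0.025, was -0.027 to -0.023 with 1 library left out. Without division by length it was -0.064, a change of scale, since B2M (604 bases) is shorter than HLA-B (1536) and HLA-C (1554). The inducible share differed by 0.565 percentage points (0.402 to 0.751 with 1 library left out). Apart from that scale, the cause of these changes was not tested. Depth limits PSMB9 most, at 48 counts in the shallowest case.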

Other observations

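Genes below the count filter pointed both ways. In the edgeR fit without a filter, 8 of 12 such interferon-gamma responsive genes had a fitted log2 fold change above 0 and 4 below 0, and 1 passed; of 11 such class II genes 4 were above 0, 1 was below and 6 had 0 counts throughout, and 1 passed. The counts below are not scaled to library totals, which ran from 17291138 to 22540099 in shControl and from 22188073 to 24898425 in shGXYLT2, and the genes named were picked out after their values were seen. CXCL10, a chemokine that draws T cells, had 0 counts in all 3 shControl libraries and 2, 6 and 10 in shGXYLT2 replicates 1 to 3 (edgeR adjusted p = 0.00594 in the fit without a filter). CD74, the class II invariant chain, had 2, 0 and 2 counts in shControl and 6, 12 and 10 in shGXYLT2 (adjusted p = 0.0344 in that fit). HLA-DOB, a class II gene next to TAP2, had 4, 4 and 4 counts against 11, 17 and 12 (adjusted p = 0.132), and GBP5 had 2, 7 and 3 against 4, 11 and 16 (adjusted p = 0.436); these 2 did not pass. In the other direction, GBP2 had 5, 4 and 2 counts against 2, 3 and 5 (adjusted p = 0.807), GBP1 4, 7 and 8 against 9, 6 and 4 (0.829), TRIM22 7, 5 and 9 against 3, 9 and 8 (0.785), and CXCL9 2, 0 and 0 against 0, 0 and 0 (0.564). These counts are at the edge of detection. Adjusted p-values of the edgeR fit without a filter also differed from those of the main fit in both directions. For ERAP2 they were 2.55e-05 without the filter and 0.0260 with it, and for FCGRT 0.0691 and 0.0395.

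The mean log2 CPM of the 9 genes was 4.85, 4.90 and 4.88 in shControl and 4.88, 4.78 and 4.97 in shGXYLT2, since falls and rises offset each other. Among 10014 other genes whose mean log2 CPM was 3 or more, POM121C, THOC6, RETSAT and EIF6 were among those that followed this mean most closely over the 6 libraries (Pearson r = 0.988, 0.987, 0.982 and 0.982, as a description; 52 genes were above 0.95 and these 4 did not pass the test).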
